A study of Mus musculus with 14 samples.

Results

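Control oocytes of the study, those that carried neither the catalytically inactive *Ago2* allele nor a deletion of *Ago2* or *Dicer*, were 6 of its 14 RNA-seq libraries. They were chosen by their labels as the 3 *Ago2* fl/fl and the 3 *Dicer* WT libraries, and the other 8 libraries were *Ago2* ADH (3), *Ago2* null (2) and *Dicer* KO (3) oocytes. The study asked what small RNAs do during meiosis in the oocyte, and each control group was the reference for its own mutants. Every library was made from 20 full-grown, germinal vesicle (GV)-intact oocytes pooled from 3 mice per the labels (3 or 4 in the study's methods), collected 48 h after 5 IU of equine chorionic gonadotropin from females 4 to 6 weeks old and freed of cumulus cells by pipetting.

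*Ago2* fl/fl oocytes carried a floxed *Ago2* gene, and their genotype label reads *Ago2* wild-type. They came from crosses of 3 transgenic strains on a mixed, mostly C57BL6 background. *Dicer* WT oocytes are labelled *Dicer* wild-type. The recombinase of the mutant groups is driven by the *Zp3* promoter, which acts in growing oocytes. The study's breeding scheme lists *Ago2* fl/fl females without it, and fl/fl females that carry it as *Ago2* null. Whether *Dicer* WT females carried it is not given in the sources used here. Genotype and series differ together between the control groups, so that the floxed allele and whatever else set the series apart (strain background, sequencing run) cannot be told apart. The study's methods give separate alignment settings for shorter and longer reads, without naming the libraries of each. Any part of read length or alignment settings in the differences was not tested. The study's methods describe 3 rounds of collection for the 3 replicates of a group. Neither they nor the labels say that these pools came from separate litters or days, and p-values measure only the spread between the pools. A library gives shares of RNA: fewer oocytes and less RNA per oocyte cannot be told apart.

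A full-grown oocyte has stopped most transcription and lives on mRNA stored during growth, which drives meiotic maturation, fertilization and the first cleavages. Its best known products are the zona pellucida glycoproteins that form the egg coat, the growth factors GDF9 and BMP15 that act on the surrounding granulosa cells, and the subcortical maternal complex that the early embryo needs. Many of these genes are transcribed under the germ cell factors FIGLA, a basic helix-loop-helix protein, and NOBOX, a homeobox protein.

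The promoters of 3 genes on which the results turn are shown, *Zp3* and *Bmp15* as defining oocyte markers and *Ooep* as the listed oocyte gene that differed most among the highly abundant ones between the control groups. They are the 250 bases before the start site in RefSeq (GRCm38.p6), at chr5:135979855-135980104 on the plus strand for *Zp3*, chrX:6320725-6320974 on the minus strand for *Bmp15* and chr9:78378589-78378838 on the minus strand for *Ooep*. Capitals mark matches, on either strand, to 3 motifs. The E-box of basic helix-loop-helix proteins is CANNTG. The motif searched for NOBOX is TAATTG, and the core promoter box searched is TATAAA. Matches on the other strand appear as the reverse complement.
Zp3: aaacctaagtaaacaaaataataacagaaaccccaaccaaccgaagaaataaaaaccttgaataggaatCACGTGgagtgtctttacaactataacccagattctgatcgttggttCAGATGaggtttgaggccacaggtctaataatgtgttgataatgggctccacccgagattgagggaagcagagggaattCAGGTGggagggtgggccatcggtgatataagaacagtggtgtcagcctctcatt
Bmp15: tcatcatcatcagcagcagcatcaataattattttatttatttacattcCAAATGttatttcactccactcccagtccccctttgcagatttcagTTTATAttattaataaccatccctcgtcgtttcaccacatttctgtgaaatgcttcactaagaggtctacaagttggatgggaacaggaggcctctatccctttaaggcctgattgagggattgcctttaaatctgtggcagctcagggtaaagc
Ooep: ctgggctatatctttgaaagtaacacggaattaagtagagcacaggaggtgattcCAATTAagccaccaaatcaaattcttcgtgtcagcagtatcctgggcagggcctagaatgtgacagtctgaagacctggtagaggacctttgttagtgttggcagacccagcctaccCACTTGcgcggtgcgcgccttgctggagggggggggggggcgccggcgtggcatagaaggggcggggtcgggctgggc
*Zp3* held 3 CANNTG matches, *Bmp15* 1 CANNTG and 1 TATAAA, and *Ooep* 1 CANNTG and 1 TAATTG, with no match overlapping another. CANNTG stood in 71.8% of the 78 promoters found for the 100 most abundant genes, in 70.5% of 129 promoters of listed oocyte genes and in 66.0% of all 27025 promoters of this length. TAATTG stood in 3.85%, 6.98% and 7.34% of them, and TATAAA in 8.97%, 7.75% and 13.0%. A match is a description of the letters only. *Zp1*, *Zp2* and *Gdf9* were not among the matched promoters.

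Reads counted on 1 transcript per gene numbered 37624409 to 42924812 in *Ago2* fl/fl and 28019334 to 30945020 in *Dicer* WT libraries. Of 20638 genes, 18016 had a count in at least 1 control library, 14559 in all 6, and 2622 had none. A count of 0 in 1 control library allows up to 0.0699 to 0.1071 CPM (3 counts, scaled to the library total), which covers counting error only. Reads with several alignments were tallied apart from the gene counts, and their alignments numbered 53.4 to 81.04 per 100 counted reads in the control libraries. Some copies at separate places still had equal counts. *Rnaset2a* and *Rnaset2b* on chromosome 17 both had 161, 191 and 152 in *Dicer* WT libraries. Whether reads shared by copies also entered gene counts therefore cannot be told.

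The labelled cell type was checked on the defining markers *Zp3*, *Gdf9* and *Bmp15*. All 3 stood among the 57 most abundant genes of the control oocytes, by TPM, a share of the library that divides counts by transcript length and is used here to compare genes. *Zp3*, which encodes a structural protein of the egg coat, measured 4498, 4682 and 4668 TPM in *Ago2* fl/fl and 4575, 4604 and 4658 TPM in *Dicer* WT libraries. *Gdf9* measured 10979, 10133 and 9848 against 6470, 7578 and 6713 TPM. *Bmp15* measured 1335, 1302 and 1263 against 1988, 1888 and 2134 TPM. The *Zp3* TPM of the groups overlapped, whereas *Gdf9* was higher in every *Ago2* fl/fl library and *Bmp15* in every *Dicer* WT library.

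Markers of the other cells that a denuded oocyte could carry along were low. The granulosa and cumulus list of 16 genes summed to 120.6 to 133.3 TPM in *Ago2* fl/fl and 166.5 to 179.9 TPM in *Dicer* WT libraries. Its genes *Foxl2* and *Ptx3* were at 0 counts in all 6 libraries, *Amh* and *Lhcgr* stood at or under 0.127 TPM on average, and 2 members made up most of the sum, *Nr5a2* (74.4 TPM over the 6 libraries) and *Cyp19a1*, the aromatase gene. *Cyp19a1* measured 48.1, 46.0 and 42.5 TPM in *Ago2* fl/fl and 75.1, 89.5 and 87.6 TPM in *Dicer* WT libraries, without overlap. The 6 theca and stroma markers summed to 0.842 to 3.04 TPM. Of the 6 endothelial and blood markers, *Pecam1* stood at 42.8 TPM and the others at or under 0.0915 TPM. The part of such cells in any difference between the groups was not tested.

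The control transcriptome was concentrated on few genes. The 100 most abundant genes held 25.5% ± 0.585 (SD, n = 3) of TPM in *Ago2* fl/fl and 23.5% ± 0.259 in *Dicer* WT libraries, and 50% of TPM was held by 459 to 489 genes against 533 to 550. Between 11403 and 11845 genes reached 1 TPM in a library, 7303 to 7523 reached 10, 1989 to 2111 reached 100, and 130 to 145 reached 1000. The share of the top 100 and the number of genes holding 50% of TPM did not overlap between the groups, whereas the number of genes at 1000 TPM did. Without division by length the top 100 held 18.6% of counts in *Ago2* fl/fl and 18.9% in *Dicer* WT, the opposite order. With 3 libraries against 3, no exact permutation test can go below p = 0.1.

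The most abundant gene over the 6 libraries was *Gm20594*, on chromosome 6 at 79818031 to 79818364 (GRCm38), which measured 5353, 5362 and 5058 TPM in *Ago2* fl/fl and 15091, 13238 and 12074 TPM in *Dicer* WT libraries. It ranked 8 in the first group and 1 in the second. The GENCODE transcript length used for its TPM, 449 bases, is longer than this RefSeq interval, so its TPM and ranks are uncertain. *Ldhb*, a lactate dehydrogenase subunit, ranked 1 in *Ago2* fl/fl, at 11527, 11481 and 10702 TPM against 7585, 7139 and 7462. *Zbed3*, a zinc finger gene of the subcortical maternal complex, was at 7666, 7860 and 7888 against 8312, 8984 and 8834 TPM. *Zbed3* thus stood in the top 3 of both groups, and *Gdf9* ranked 2 and 4.

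Next came *Dppa3* (6168 TPM over the 6 libraries), whose maternal protein shields the maternal genome of the zygote from demethylation, and *Spin1* (spindlin, a reader of histone methylation), at 5269, 5251 and 5282 TPM in *Ago2* fl/fl and 6047, 5791 and 5983 TPM in *Dicer* WT libraries. *Rpl41*, a ribosomal protein gene, was at 6887, 6719 and 6574 against 3457, 3848 and 3356 TPM, ranking 5 and 15. *Ooep*, a subunit of the subcortical maternal complex, was at 6247, 6063 and 5705 against 3002, 2817 and 3022 TPM, ranking 6 and 23. The length used for *Ooep*, 2138 bases, is also longer than its RefSeq interval (78376903 to 78378588 on chromosome 9), which makes its TPM and ranks uncertain. The *Rpl41* and *Ooep* groups were far apart, with the lowest *Ago2* fl/fl library above every *Dicer* WT library. The rest of the top 20 were *H1f8* (the oocyte linker histone), *Skp1* (an adaptor of SCF ubiquitin ligases), *Bpgm* (bisphosphoglycerate mutase), *Nlrp14*, *Ccdc82*, *Sod1* (superoxide dismutase), *Pttg1* (securin), *Oosp1*, *Ftdc1*, *Oosp3* and *Zfp57* (a zinc finger protein that protects imprints).

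**Figure D1:**
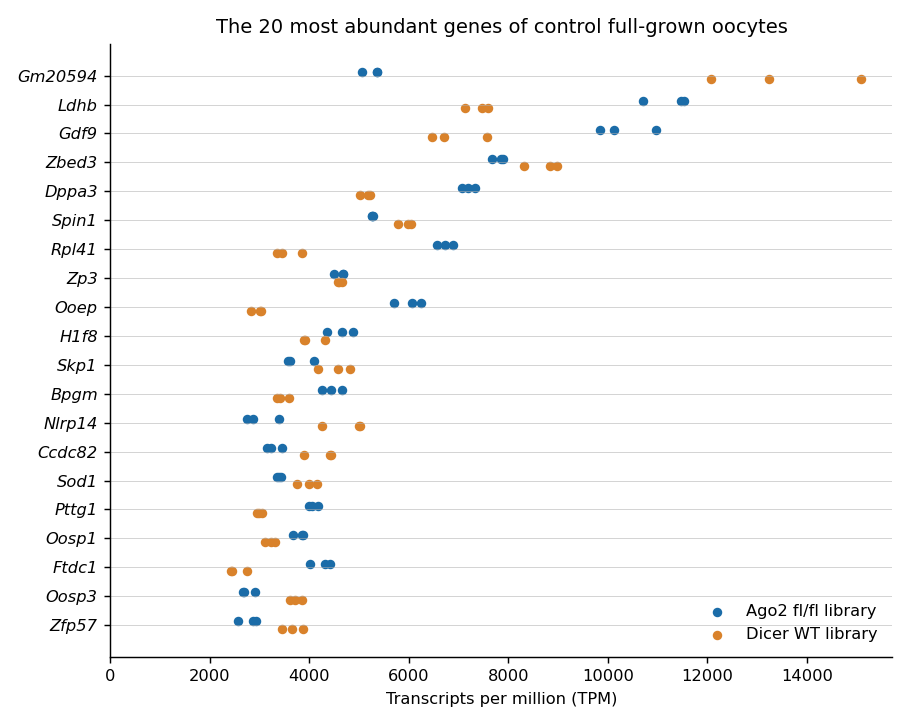
TPM (x axis, linear) of the 20 most abundant genes in each of the 3 *Ago2* fl/fl (blue) and 3 *Dicer* WT (orange) libraries, 1 point per library. *Gm20594* reached 15091 TPM in a *Dicer* WT library and at most 5362 in *Ago2* fl/fl libraries, and the points of *Zp3* lie between 4498 and 4682.

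Taken as lists of the 10, 20, 100 and 500 most abundant genes of each group, 7, 14, 71 and 412 genes were shared, or 70.0%, 70.0%, 71.0% and 82.4% of each list. Single libraries of one group shared 92 to 96 of their top 100, and libraries of different groups 65 to 74. *H1f8*, *Ooep* and *Rpl41* were in the top 10 of *Ago2* fl/fl only, and *Ccdc82*, *Nlrp14* and *Skp1* in that of *Dicer* WT only.

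The 15 lists of oocyte genes held 159 genes with counts, and they stood well above the rest of the transcriptome. Their median was 161.4 TPM against 13.2 TPM for all genes tested; 83% reached 10 TPM and 56% reached 100 TPM, against 36.9% and 10.2% of all 20242 genes with a known length. In all, 25 reached 1000 TPM, 20 were among the top 100, and 9 stayed under 1 TPM. Together they held 9.97% of TPM in *Ago2* fl/fl and 9.62% in *Dicer* WT libraries. These lists were chosen as oocyte genes, so their height is a description.

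Among genes of the egg coat and surface, *Zp3* was followed by *Zp2* (2837 TPM over the 6 libraries) and *Zp1* (784.7 TPM), the other structural zona proteins. *Izumo1r*, the sperm receptor JUNO, stood at 275.1 TPM, *Astl*, the cortical granule protease ovastacin that cleaves ZP2 after fertilization, at 220.2 TPM, and *Cd9*, a tetraspanin needed for sperm fusion, at 136.6 TPM. *Cd81*, a related tetraspanin, was at 4.4 TPM. Of signals to and from the follicle, *Gdf9* (8620 TPM) exceeded *Bmp15* (1652 TPM), the gap junction gene *Gja4* (351.2 TPM), the receptor gene *Kit* (172.0 TPM), *Bmp6* (61.5 TPM) and *Fgf8* (32.9 TPM).

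All 8 genes of the subcortical maternal complex list reached 100 TPM, from *Khdc3* (175.4 TPM) through *Nlrp2* (325.2), *Nlrp4f* (683.6), *Nlrp5* (1052), *Tle6* (1300), *Padi6* (1727) and *Ooep* (4476) to *Zbed3* (8257 TPM). The other oocyte *Nlrp* genes ranged from 17.8 TPM (*Nlrp4c*) to 3879 TPM (*Nlrp14*). The 11 oogenesins and oocyte-secreted proteins lay between 183.2 TPM (*Oog2*) and 3507 TPM (*Oosp1*), with 7 of them at 1000 TPM or more. No member of these 3 lists was under 10 TPM.

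Transcription factor mRNAs were lower and more uneven. *Obox2* (722.8 TPM), *Nobox* (698.1 TPM), *Lhx8* (560.4 TPM) and *Figla* (105.0 TPM) were plentiful, whereas *Sohlh1* (0.226 TPM), a factor of early follicles, and *Obox6* (0.544 TPM) were under 1 TPM. Of the genes that store and translate maternal mRNA, *Zar1* (2316 TPM), *Cpeb1* (1643 TPM), which directs cytoplasmic polyadenylation, and *Btg4* (1133 TPM), an adaptor for deadenylation, were highest. *Ddx6*, an RNA helicase of repression complexes, was at 16.7 TPM.

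The genes that hold and release meiotic arrest spread over a wide range of TPM. *Ccnb1*, the cyclin of maturation-promoting factor, stood at 985.1 TPM and its kinase *Cdk1* at 50.8 TPM. *Wee2*, the oocyte kinase that inhibits CDK1, was at 793.1 TPM, the receptor gene *Gpr3*, which keeps cAMP high, at 175.7 TPM and its relative *Gpr12* at 1.58 TPM. *Mos*, the kinase that starts the MAPK cascade of metaphase II arrest, was at 453.8 TPM. Of the checkpoint genes, *Bub1b* (804.0 TPM), *Ttk* (514.2 TPM) and *Mad2l1* (381.2 TPM) were the highest, and among Aurora kinases the germ cell form *Aurkc* (319.0 TPM) exceeded *Aurka* (207.7 TPM) and *Aurkb* (27.4 TPM).

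The small RNA pathway, the subject of the study, had modest mRNA levels. *Dicer1*, the nuclease that makes microRNAs and siRNAs, stood at 245.4 TPM and was the only one of 13 genes above 100 TPM. *Drosha*, which cuts primary microRNAs, was at 80.4 TPM and its partner *Dgcr8* at 11.6 TPM. Among the Argonaute genes, *Ago3* (30.8 TPM) was above *Ago2* (6.33 TPM), the only one that encodes an active slicer, and *Ago4* (0.834 TPM) and *Ago1* (0.528 TPM) were under 1 TPM. In the piRNA pathway, *Gtsf1* (1448 TPM) and *Tdrd1* (714.0 TPM) were highest, while the Piwi genes were low, with *Piwil1* at 12.1, *Piwil2* at 2.74 and *Piwil4* at 0.0238 TPM.

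*Dppa3*, *Zfp57* (3223 TPM) and *Dnmt1* (1751 TPM), the maintenance DNA methyltransferase, led the list for DNA methylation, with *Dnmt3l* at 170.6 TPM, *Dnmt3a* at 54.0 TPM and *Dnmt3b* at 8.45 TPM. *Syce2* (1664 TPM) led the cohesin and synaptonemal complex list, in which *Rec8* (0.00661 TPM) and *Syce3* (0.0786 TPM) were near 0. Calcium signalling genes of egg activation ranged from *Camk2g* (161.4 TPM) and *Itpr1* (66.6 TPM) down to *Stim1* (0.525 TPM). Housekeeping genes lay between 25.3 TPM (*Tbp*) and 769.0 TPM (*Eef1a1*), with *Actb* at 150.3 and *Gapdh* at 160.2 TPM.

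**Figure D2:**
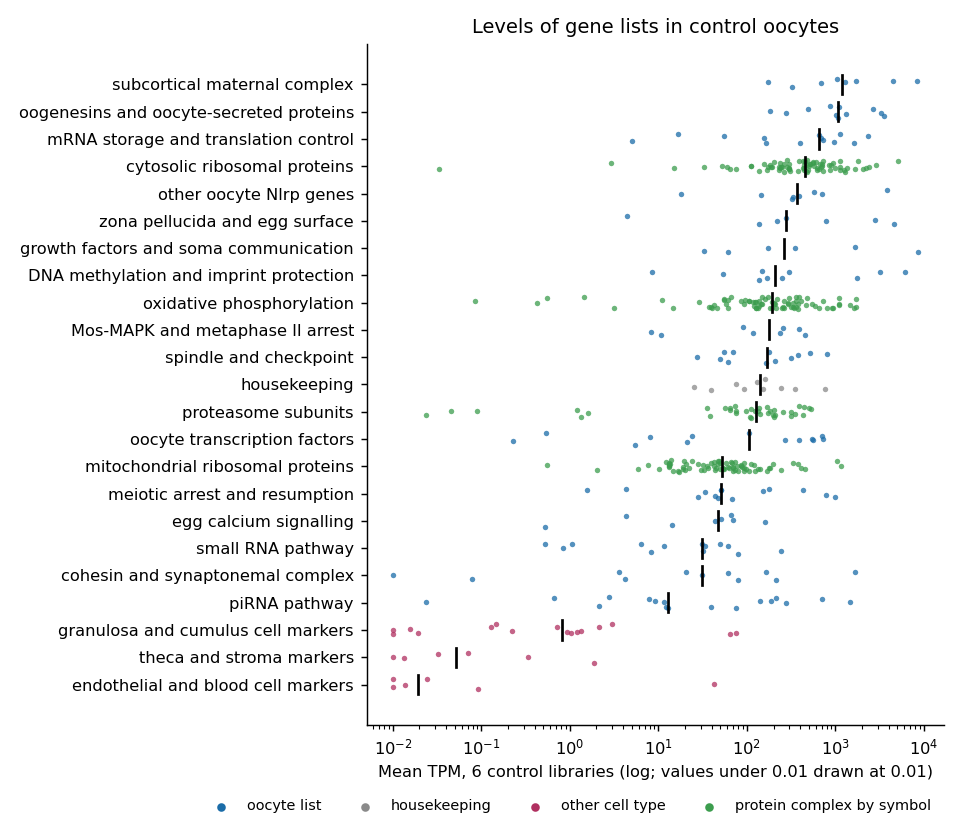
Mean TPM over the 6 control libraries (x axis, log scale, values under 0.01 drawn at 0.01) for each member of the gene lists (y axis), 1 point per gene and a black bar at the list median. The subcortical maternal complex has the highest median (1176 TPM), and the medians of the lists for other cell types lie under 1 TPM.

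How far the control groups agreed was asked first of the libraries. Across the 13810 genes tested, Spearman's rho between 2 libraries was 0.995 to 0.996 within *Ago2* fl/fl, 0.992 to 0.993 within *Dicer* WT and 0.967 to 0.973 between the groups (genes are not independent replicates). The median gap between 2 libraries was 0.118 to 0.142 on the log2 scale within *Ago2* fl/fl, 0.162 to 0.166 within *Dicer* WT and 0.372 to 0.439 between the groups. Genes more than 2-fold apart made up 4.57% to 4.71%, 5.8% to 6.16% and 14.8% to 17.3%.

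Gene by gene, edgeR's quasi-likelihood test (Benjamini-Hochberg adjustment, FDR 1%) found 5796 of 13810 genes (42.0%) to differ between *Dicer* WT and *Ago2* fl/fl oocytes, 2814 higher in *Dicer* WT (20.4%) and 2982 higher in *Ago2* fl/fl (21.6%). Most differences were small. At least 2-fold differences were called for 1313 genes (9.51%), 773 higher in *Dicer* WT and 540 higher in *Ago2* fl/fl. The 95% interval of the difference lay within 2-fold for 9157 genes (66.3%), of which 3678 were called. All 3 libraries of one group were beyond all 3 of the other for 8200 genes (59.4%).

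The mutant comparisons of the study called like numbers of genes with the same test, 5726 (41.0%) between *Ago2* ADH and *Ago2* fl/fl, 5371 (37.6%) between *Ago2* null and *Ago2* fl/fl, and 4723 (34.2%) between *Dicer* KO and *Dicer* WT. Differences of at least 2-fold made up 13.3%, 12.9% and 12.8% of the genes tested there, against 9.51% between the controls. The first 2 share their controls, and each control group is also part of the comparison made here.

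**Figure D3:**
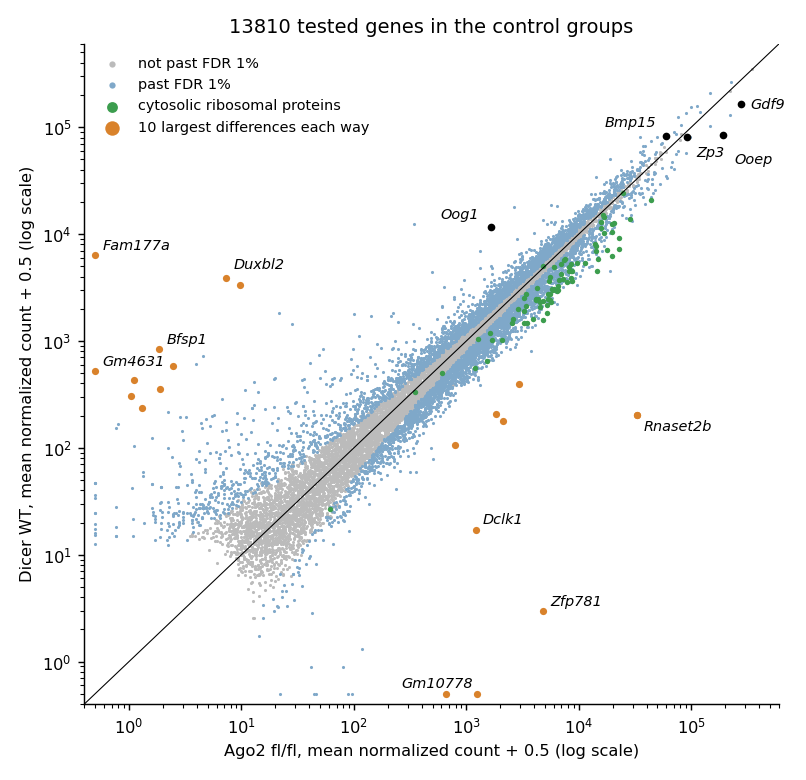
Mean normalized count plus 0.5 of each tested gene in *Ago2* fl/fl (x axis) and *Dicer* WT (y axis) oocytes, both on log scales, with genes past an FDR of 1% in blue, cytosolic ribosomal protein genes in green, the 10 largest differences each way in orange and selected oocyte genes in black. *Zp3* lies near the line of equal counts (log2 difference -0.16), *Oog1* above it (2.82), and *Gm10778* and *Fam177a* at 0 counts in one group.

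The oocyte genes differed often and by little. Of the 154 tested, 99 were called (64.3%, against 42.0% of all genes), 50 higher in *Dicer* WT and 49 higher in *Ago2* fl/fl, and the interval lay within 2-fold for 137 (89%). Their median log2 difference was 0.02, against -0.02 for all genes tested. The listed oocyte genes were also more abundant (median 161.4 against 13.2 TPM), and of the 100 most abundant genes of any class 80.0% were called. The part of abundance in the share called was not tested. Log2 differences here and below are *Dicer* WT minus *Ago2* fl/fl on normalized counts. On the TPM scale the median gene was higher by 0.16 than on that scale, so the 2 can differ in sign for small differences.

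Only 6 of the 154 differed by at least 2-fold past the threshold. They were *Oog1* (2.82 ± 0.0631, SE), *Ago4* (1.24), *Piwil2* (1.18 ± 0.256) and *Ddx6* (1.04 ± 0.0950), higher in *Dicer* WT, and *Ooep* (-1.19 ± 0.0533) and *Tarbp2* (-1.01 ± 0.0888), higher in *Ago2* fl/fl. *Oog1*, an oogenesin, measured 61.8, 59.0 and 64.8 TPM in *Ago2* fl/fl and 516.9, 484.2 and 460.6 TPM in *Dicer* WT libraries, and its adjusted edgeR p was 8.63e-18. The *Oog1* groups were far apart, but its near-identical copy *Gm2042* makes the gene of origin uncertain. *Piwil2* rested on low levels, 1.63, 1.38 and 1.62 against 5.98, 2.4 and 3.4 TPM, and lost its call without the first *Dicer* WT library (0.74). *Ago4*, under 1 TPM, lost its call with offsets for GC content and length (0.95) and without *Ago2* fl/fl library 2 (1.14) or *Dicer* WT library 2 (1.02). *Ddx6* (0.61) and *Tarbp2* (-0.56) were under 2-fold apart with these offsets.

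For the defining markers, the edgeR log2 difference was -0.74 ± 0.0594 for *Gdf9* (adjusted p = 3.38e-09), 0.46 ± 0.0544 for *Bmp15* (6.5e-07) and -0.16 ± 0.0441 for *Zp3* (0.00412), whose normalized counts were 91122 ± 783.4 and 81421 ± 1079 (SD). *Gdf9* was thus higher in *Ago2* fl/fl and *Bmp15* in *Dicer* WT, in 3 of 3 libraries each. The *Zp3* call was lost without *Ago2* fl/fl library 2 or 3 or *Dicer* WT library 1 (-0.17 to -0.16), by RLE (-0.14) or upper quartile normalization (-0.12) and with all 5 groups in one fit (-0.17), and its direction turned with offsets for GC content and length (0.31). *Bmp15* kept its direction with these offsets but not its call (0.11). In the egg surface list, *Izumo1r* (-0.79 ± 0.0609), *Astl* (-0.77 ± 0.0565) and *Zp2* (-0.27 ± 0.0532) were higher in *Ago2* fl/fl, 5 of 7 members in all, and 1, *Cd9*, was higher in *Dicer* WT (against 21.6% and 20.4% of all genes). With the offsets these counts were 3 and 2.

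The abundant maternal genes *Zbed3* (-0.00 ± 0.0444) and *Spin1* (0.01 ± 0.0433) were not called, and their values changed sign with the scaling; with GC and length offsets both were called, at 0.27 and -0.32. In the subcortical maternal complex 2 of 8 genes were higher in *Dicer* WT and 4 in *Ago2* fl/fl (against 20.4% and 21.6% of all genes), and with the offsets 1 and 4. Of the other oocyte *Nlrp* genes, 7 of 8 were higher in *Dicer* WT and none in *Ago2* fl/fl (median 0.38), among them *Nlrp14* (0.50 ± 0.0758), *Nlrp9b* (0.53 ± 0.0507) and *Nlrp4c* (0.67 ± 0.0937). With GC and length offsets 1 was higher in *Dicer* WT and 3 in *Ago2* fl/fl (median -0.10).

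In the small RNA list 5 of 13 genes were higher in *Dicer* WT and 1 in *Ago2* fl/fl (46.2% called, near the 42.0% of all genes), and with the offsets 1 and 1. *Dicer1* measured 200.0, 211.9 and 217.6 TPM in *Ago2* fl/fl and 277.3, 278.4 and 287.3 TPM in *Dicer* WT libraries, a log2 difference of 0.26 ± 0.0473 (-0.06 with the offsets, not called). *Ago2*, floxed in one control group, measured 5.57, 5.99 and 5.72 against 7.2, 6.6 and 6.89 TPM, and its log2 difference of 0.10 ± 0.0823 was not called. *Ago3* (0.51 ± 0.0656) and *Drosha* (0.53 ± 0.0582) were higher in *Dicer* WT; *Ago3* turned to -0.04 with the offsets. *Tarbp2*, a double-stranded RNA-binding partner of DICER, measured 82.9, 75.9 and 74.9 against 42.3, 47.3 and 40.2 TPM, without overlap.

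Among other oocyte regulators, *Figla* was lower in *Dicer* WT (-0.93 ± 0.102) and *Nobox* higher (0.21 ± 0.0559), the latter not past the threshold without *Ago2* fl/fl library 1 (0.15) or *Dicer* WT library 3 (0.19). *Tdrd1*, a Tudor protein of the piRNA pathway, was higher in *Dicer* WT (0.68 ± 0.0610). *Zar1* (-0.77 ± 0.0494), the MAP kinase gene *Mapk3* (-0.91 ± 0.0552), *Aurkc* (-0.96 ± 0.0673), the checkpoint target *Cdc20* (-0.87 ± 0.0766) and *Oas1d* (-0.74 ± 0.0529), of the oligoadenylate synthetase family, were higher in *Ago2* fl/fl. *Zar1* was not called with the offsets (-0.11).

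Genes of large protein complexes were called more often than all genes tested, and mostly in one direction. Their list medians, 51.8 to 456.5 TPM, were also above the 13.2 TPM of all genes tested. Of 80 cytosolic ribosomal protein genes, 74 were higher in *Ago2* fl/fl and none in *Dicer* WT (against 21.6% and 20.4% of all genes), with a median log2 difference of -0.92 against -0.02 for all genes. Their summed level was 65365 to 65944 TPM in *Ago2* fl/fl and 36702 to 39749 TPM in *Dicer* WT libraries, or 6.57% and 3.85% of TPM. *Rps29* (-1.33 ± 0.0676), *Rpl41* (-1.08 ± 0.0554) and *Rpl39* (-1.05 ± 0.0635) were the most abundant of those at least 2-fold apart. The 6 that were not called lay between -0.29 and 0.06.

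Of 77 oxidative phosphorylation genes, 67 were higher in *Ago2* fl/fl and 3 in *Dicer* WT (median -0.85), with *Atp5mpl* (-1.36 ± 0.0708) and *Atp5e* (-1.28 ± 0.0721), both ATP synthase subunits, in the first direction and *Atp5b* (0.50), the catalytic beta subunit, in the second. Of 77 mitochondrial ribosomal protein genes, 56 were higher in *Ago2* fl/fl and 2 in *Dicer* WT (median -0.60), and 34 and 6 with GC and length offsets (median -0.3). Of 35 proteasome subunits the counts were 21 and 4 (median -0.32), and 16 and 4 with the offsets, against 21.6% and 20.4% of all genes without them. Of 10 housekeeping genes they were 3 and 1 (a share called near the 42.0% of all genes), and 3 and 2 with the offsets.

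**Figure D4:**
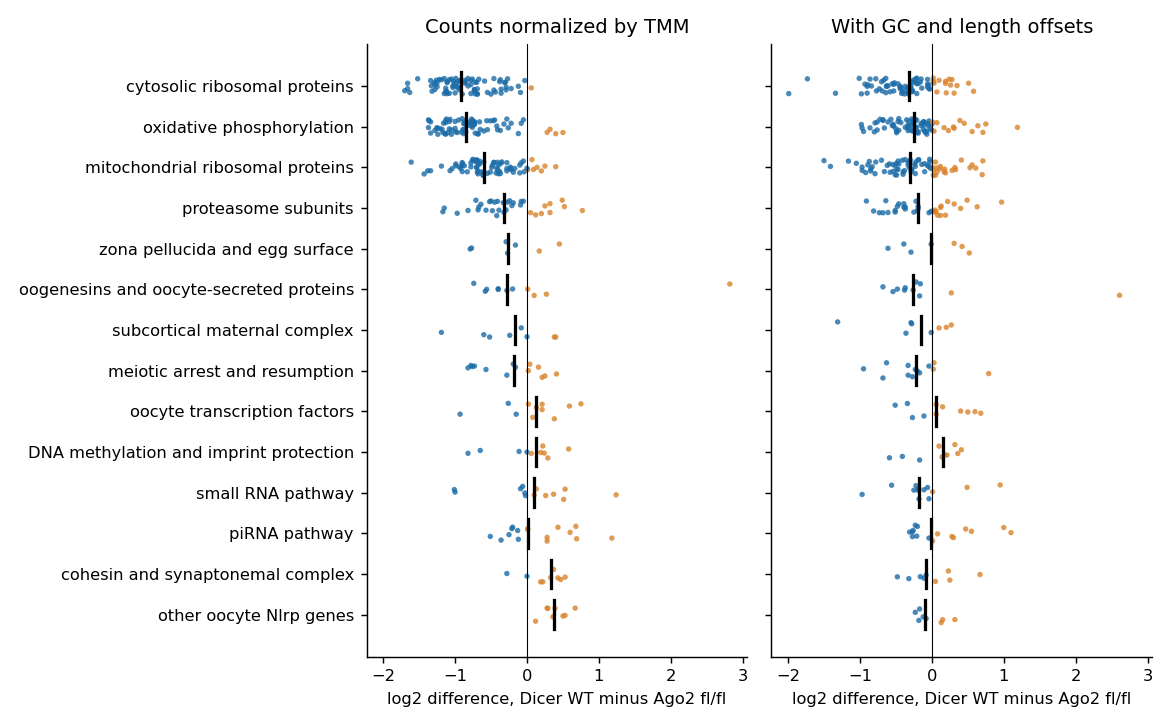
Log2 difference, *Dicer* WT minus *Ago2* fl/fl (x axis), of each tested member of the gene lists (y axis), on TMM-normalized counts (left) and with GC and length offsets (right); points are genes, orange above 0 and blue below, and the black bar is the median. The cytosolic ribosomal median moves from -0.92 to -0.32 between the panels and that of the other oocyte *Nlrp* genes from 0.38 to -0.10.

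Transcript length and GC content moved with the difference between the groups, and several of these lists differed from the average gene in length. Median GC content was 50.8% in the cytosolic ribosomal list and 49.7% in the proteasome list and over all genes tested. The median transcript was 795 bases in the cytosolic ribosomal list and 714 in the oxidative phosphorylation list, against 2943 bases over all genes tested, and 3341 bases with 41.8% GC in the *Nlrp* list. Across 13588 genes, Spearman's rho of the log2 difference was -0.41 with GC content and 0.36 with length, described over genes of the same libraries. The median difference fell from 0.40 for transcripts under 40% GC to -0.52 for those over 60%, and rose from -0.93 under 600 bases to 0.19 from 4000 bases on.

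With per-library lowess offsets for both properties, 4426 genes were called (32.0%), 12.5% of those tested being higher in *Dicer* WT and 19.5% higher in *Ago2* fl/fl. Of the called genes 39.2% were higher in *Dicer* WT, against 48.6% without offsets. In both fits 3134 genes were called in the same direction and 164 in opposite directions. Of the ribosomal genes, 51 were then higher in *Ago2* fl/fl and 9 in *Dicer* WT; of the oxidative phosphorylation genes, 40 and 7. Of the oocyte genes, 46 were higher in *Ago2* fl/fl and 24 in *Dicer* WT (median -0.08). *Ooep* (-1.31), *Oog1* (2.61) and *Gdf9* (-0.52) stayed called in their direction, whereas *Rpl41* did not (-0.06). The part of GC content and length in the difference was not tested beyond these offsets.

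**Figure D5:**
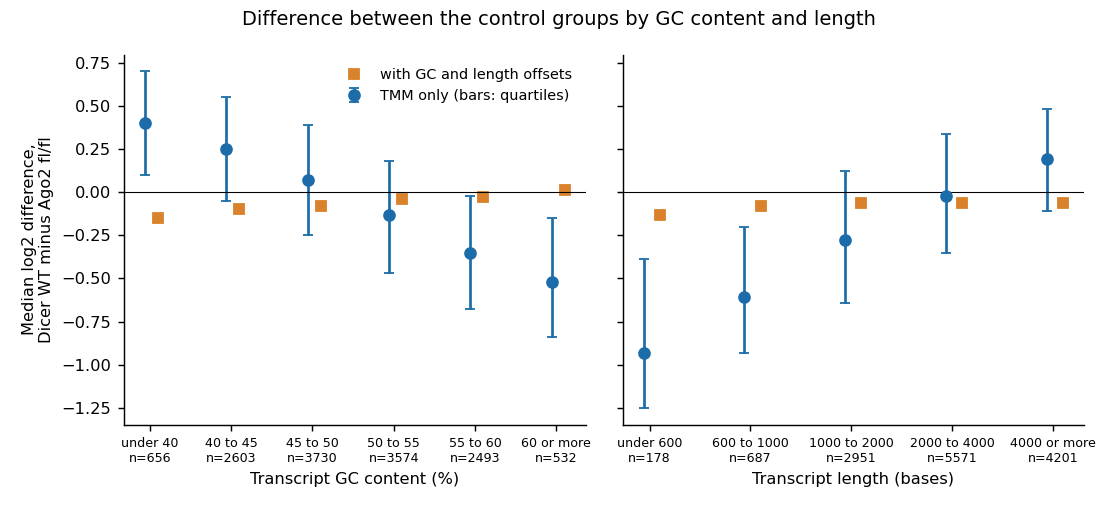
Median log2 difference, *Dicer* WT minus *Ago2* fl/fl (y axis), of genes grouped by transcript GC content (left) and length (right), on TMM-normalized counts (blue, bars from the lower to the upper quartile) and with offsets (orange). The blue medians run from 0.40 to -0.52 with rising GC content and from -0.93 to 0.19 with rising length, and the orange medians lie between -0.15 and 0.01.

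Among abundant genes, the 5 with at least a 2-fold difference and the highest TPM in each direction were named. *Gm20594* (1.19 ± 0.0653), the co-chaperone gene *Dnajb4* (1.40 ± 0.0652), *Wtap* (1.73 ± 0.0841), a subunit of the mRNA methylation complex, *Rraga* (1.25 ± 0.0680), a GTPase of amino acid sensing, and *Yipf6* (1.27 ± 0.0564) were higher in *Dicer* WT. *Wtap* had normalized counts of 5645 ± 897.4 in *Ago2* fl/fl and 18704 ± 1535 in *Dicer* WT libraries (SD, n = 3). *Ooep*, *Rpl41*, *Rps29*, *Rpl39* and *Cks2* (-1.18 ± 0.0588), a cyclin-dependent kinase subunit, were higher in *Ago2* fl/fl. With GC and length offsets *Gm20594* (1.35), *Wtap* (1.57), *Rraga* (1.31) and *Ooep* (-1.31) stayed at least 2-fold apart. *Dnajb4* (0.97), *Yipf6* (0.76), *Cks2* (-0.85), *Rpl39* (-0.52) and *Rps29* (-0.38) fell under 2-fold but stayed called, and *Rpl41* (-0.06) lost its call.

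A small set of genes was all but present or absent by group. At least 16-fold differences were called for 113 genes, 98 higher in *Dicer* WT and 15 higher in *Ago2* fl/fl. *Gm10778*, on chromosome 10 at 81649069 to 81667361, had 1534, 1483 and 1365 counts in *Ago2* fl/fl and 0 in every *Dicer* WT library, at least 342.1-fold higher by the floor of 3 counts per library. *Vmn1r132*, a vomeronasal receptor gene on chromosome 7 at 21612745 to 21615147, had 851, 765 and 694 against 0, at least 180.2-fold higher. *Zfp781*, a zinc finger gene on chromosome 10 at 81901911 to 81930512, had 5748, 6127 and 5093 against 2, 4 and 0 counts.

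*Rnaset2b*, a lysosomal ribonuclease gene, had 39296, 40769 and 35243 counts in *Ago2* fl/fl and 161, 191 and 152 in *Dicer* WT libraries (log2 difference -7.33 ± 0.0805), and its near-identical copy *Rnaset2a* had almost the same counts, so reads of the 2 are not separated. *Dclk1*, a doublecortin-like kinase gene, had 1339, 1815 and 1146 against 15, 15 and 11 counts (-6.18 ± 0.199). *Bicc1* (-3.15), *Fstl5* (-2.93) and *Haus8* (-2.91), an augmin subunit, followed. None of these groups overlapped.

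In the other direction, *Fam177a*, on chromosome 12 at 55124435 to 55142104, had 0 counts in every *Ago2* fl/fl library and 4663, 5399 and 5732 in *Dicer* WT libraries, at least 2485-fold higher. *Gm4631* had 0 against 433, 426 and 421 counts, at least 202.0-fold higher. *Duxbl2*, a double homeobox gene on chromosome 14 at 26118332 to 26129785, had 10, 6 and 8 against 2974, 3488 and 3235 counts (9.14 ± 0.142). Its near-identical relative *Duxbl1* and *Tmem254c*, both between 25978560 and 26118332 on chromosome 14, had 8 to 13 and 1 to 3 counts against 2515 to 3007 and 442 to 536 counts.

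*Bfsp1*, a lens filament gene, had 0, 5 and 0 counts in *Ago2* fl/fl and 561, 510 and 1007 in *Dicer* WT libraries. Its neighbour on chromosome 2, *Pcsk2*, a prohormone convertase gene, had 1, 3 and 1 against 256, 306 and 318 counts. *Spesp1* had 0, 0 and 2 against 351, 321 and 393, and *Skint5* 0, 2 and 0 against 258, 259 and 232 counts. All 4 were near 0 in *Ago2* fl/fl oocytes and above 200 counts in every *Dicer* WT library.

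The mutant libraries, which share no sample with the controls, were read for the same genes. For 60.5% of all genes tested, the 3 *Dicer* KO libraries lay beyond the 3 *Ago2* ADH libraries in one direction or the other. Of the 773 genes at least 2-fold higher in *Dicer* WT, 620 (80.2%) had all 3 *Dicer* KO libraries above all 3 *Ago2* ADH libraries and 6 the opposite, against 26.1% of all genes tested that did so. Of the 540 at least 2-fold higher in *Ago2* fl/fl, 473 (87.6%) had all *Dicer* KO libraries below and 3 the opposite, against 34.4%. Of the 98 and 15 genes at least 16-fold apart, 90 and 15 had the mutant libraries apart in the same direction. The mutants also differ in genotype, so these shares mix both.

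*Gm10778* had 1152 to 1305 counts in *Ago2* ADH, 1551 and 1234 in *Ago2* null and 0 in all 3 *Dicer* KO libraries. *Fam177a* had 0 in all 5 *Ago2* mutant libraries and 6318, 5746 and 6724 in *Dicer* KO libraries. *Rnaset2b* had 26272 to 35440 in *Ago2* mutant and 111 to 133 in *Dicer* KO libraries. *Spesp1* differed from these, with 51, 11 and 52 counts in *Dicer* KO against 321 to 393 in *Dicer* WT libraries.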

How the data were processed

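The 6 control libraries were RNA-seq of full-grown oocytes. Per the labels and the study's methods, the authors made amplified cDNA (Ovation RNA-Seq System V2, Covaris shearing), aligned reads to mm10 with TopHat2 2.0.7, allowing each read 100 alignments at most, and tallied them with HTSeq 0.6.1, versions as in the submitters' processing notes. The deposited values are raw counts of reads for 26495 RefSeq transcripts, not normalized; 5 summary lines of each library were left out. Counting without strand cannot separate a gene from its antisense partner, and amplified reads are not independent molecules.

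The transcript with the highest mean count stood for each gene. Symbols and coordinates came from RefSeq GRCm38.p6 (the mm10 assembly), lengths and GC content from GENCODE vM21 transcripts (98.1% of genes). These lengths can differ from that of the RefSeq transcript counted, which bears on TPM and on the length offsets. TPM was computed from counts and length. Groups were compared with edgeR 4.0.16 in R 4.3.3 (filterByExpr with a minimum count of 10 and minimum total of 15, TMM, quasi-likelihood test, Benjamini-Hochberg adjustment at an FDR of 1%) on the libraries of the groups compared, checked on simulated data. The standard error is the absolute log2 difference divided by the square root of F, and intervals are 95%. Normalized counts are TMM-scaled to the mean library size. Offsets were lowess fits (span 0.3). DESeq2 1.42.0 was an alternative, as were other normalizations, filters, transcript choices, an FDR of 5%, all 5 groups in one fit, each library left out and the replicate number as a block. Python 3.11.15, numpy 2.4.6, pandas 2.3.3, scipy 1.17.1 and matplotlib 3.10.9 were used. Libraries of a group differed by more than sampling noise (chi-square per degree of freedom 6.24 to 12.36).

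The members and the gene lists were chosen with earlier results of these data known. Genes named are list members, the 20 genes of highest mean TPM, the 10 largest differences in each direction among called genes whose normalized counts averaged 100 or more and whose groups did not overlap, and the 5 most abundant called genes in each direction with at least a 2-fold difference and no overlap. Protein complex lists were taken by symbol. The list genes *Nlrp4g* and *Rad21l* were not analysed here. Some genes that meet these rules are not reported here.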

Additional observations from a re-analysis of the deposited data

Results flagged for a closer look

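Alignments of reads with several alignments, a tally outside the gene counts, stood above the control level in all mutant libraries. The lowest library had 212.95 such alignments per 100 counted reads in *Ago2* ADH, 211.02 in *Ago2* null and 128.59 in *Dicer* KO oocytes, against at most 81.04 in the 6 control libraries. Whether any of these reads also entered a gene count cannot be told from the counts, and the source of the difference was not tested.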

How the results depend on the processing

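The counts of differing genes held within 1.5 times under each alternative that was run. Leaving out each library gave 4926 to 5535 called genes, 1186 to 1364 at least 2-fold apart and 8684 to 8935 with an interval within 2-fold. It gave 4773 to 5438 called genes for *Ago2* ADH, 4432 to 5018 for *Ago2* null and 3829 to 4324 for *Dicer* KO against their controls. The share of called genes higher in *Dicer* WT was 51.6% by DESeq2, 51.4% by RLE, 54.6% by upper quartile, 46.6% by total counts, 47.2% with no filter, 39.2% with GC and length offsets and 46.9% to 49% with a library left out; its cause was not tested.

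The replicate numbers did not pair the control libraries (correlations of same-numbered deviations 0.008, 0.036 and -0.023). With the replicate block 6156 genes were called, 5765 of them also called without it. With block and offsets together the share higher in *Dicer* WT was 38.7%, and 40 oxidative phosphorylation, 35 mitochondrial ribosomal, 1 *Nlrp* and 26 oocyte genes were called in the directions given above; with offsets alone these were 40, 34, 1 and 24.

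With the offsets, with or without the block, *Zp3* turned to 0.31, *Zbed3* to 0.27, *Spin1* to -0.32, *Dicer1* to -0.06, *Ago2* to -0.18 and *Ago3* to -0.04. *Zbed3* was 0.02 by DESeq2 and RLE, 0.04 by upper quartile, 0.01 with at least 10 counts in every library and -0.03 to 0.02 with a library left out. *Spin1* was -0.01 by total counts, -0.00 with no filter and -0.01 to 0.03 with a library left out. The 100 most abundant genes held 18.6% (*Ago2* fl/fl) and 18.9% (*Dicer* WT) of CPM, or 26.3% and 25.7% of TPM with transcripts summed. Over all genes with a count, the lowest Spearman's rho was 0.989 within *Ago2* fl/fl, 0.987 within *Dicer* WT and 0.970 between groups. Pools of 20 oocytes, 3 per group, limit the precision.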

Other observations

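Genes known to vary among mouse strains were read as a description of the background. Of 4 with counts, *Glo1* (45.6 against 33.6 TPM), *Entpd4* (14.3 against 11.9 TPM) and *Alad* (13.2 against 9.24 TPM) were called as higher in *Ago2* fl/fl than in *Dicer* WT oocytes, and *Mid1* was not called (37.8 against 38.2 TPM). Over all genes tested 21.6% were higher in *Ago2* fl/fl, and with GC and length offsets 1 of the 4 was called. Within 5 Mb of *Ago2*, 5 of 70 tested genes (7.14%) differed by at least 2-fold between the control groups, against 29 of 454 (6.39%) on the rest of its chromosome. Within 5 Mb of *Dicer1* these were 7 of 61 (11.5%), against 39 of 402 (9.7%). Within 10 Mb the shares were 8.28% against 5.63% for *Ago2* and 8.26% against 10.5% for *Dicer1*, and within 20 Mb 6.27% against 6.72% and 10.7% against 9.49%, so that the order changed with the window.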
